A study of Caenorhabditis elegans with 68 samples.

Results

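Cytochrome P450 genes were followed in RNA sequencing libraries of Caenorhabditis elegans, a nematode, made from newly hatched larvae of the first stage (L1). They were the protein-coding genes whose symbol has the form of the systematic P450 name, cyp- with a family number, a subfamily letter and a gene number, and 75 of the 30470 rows of the table, of which 20450 were protein-coding, met this rule. The rule used no measured value. It left out 6 rows with such a name that the table types as pseudogenes, and it left out daf-9, the P450 that makes the steroid hormone dafachronic acid, whose name has another form.

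The maternal generation was kept on 50 or 300 mM NaCl, and RNA of their synchronised, unstarved L1 progeny was measured in 48 libraries of 14 groups, in 4 sets named D to G here. Set D held the wild type (WT, strain N2) and mir-85(n4117), a mutant of the microRNA gene mir-85 (2 libraries per group). Set E held the progeny of mothers that carried mir-85(n4117) over the balancer chromosome mIn1 [mIs14 dpy-10(e128)], in which F1het larvae carried n4117 and the balancer and F1KO larvae were homozygous for n4117 (3 libraries per group). Set F consisted of mir-85(gcp109) larvae, from which only the 3p part of mir-85 is deleted (4 libraries per group). Set G consisted of N2, again as the wild type, and of hrg-1(gcp100), whose heme transporter gene hrg-1 has a mutated site for the mir-85 seed (5 libraries per group). The mir-85 mutants of sets D, E and F and the balancer of set E were each analysed in 1 strain, and whole larvae were used, so a result belongs to no single tissue. Separate cultures are not named in the labels, and p-values therefore measure the spread between these samples alone.

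P450 enzymes are heme-containing monooxygenases. They insert oxygen into fatty acids, steroids, eicosanoid precursors and foreign compounds, with electrons that NADPH-cytochrome P450 reductase (emb-8 in C. elegans) and cytochrome b5 proteins deliver. Nematode P450s are grouped into the CYP2, CYP3, CYP4 and mitochondrial clans. The CYP2 clan holds the 14A and 33 to 35 families, of which 35A genes are known for their induction by foreign compounds, and many P450 genes are expressed in the intestine. The CYP4 clan holds enzymes related to fatty acid hydroxylases, and cyp-31A2 and cyp-31A3 of this clan are known for making lipids of the permeability barrier of the eggshell.

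Levels are TPM, a length-normalised share of the transcripts of a library, and group levels are given as mean ± SD. Differences are log2 differences of TPM + 1, with the standard error (SE), and were tested two-sided with limma, with a threshold of 0.05 on p adjusted over every gene of the fit. A gene is said to have risen or fallen only where it passed this test. The depth of the libraries is unknown, because it cannot be read from TPM.

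In 4 set G libraries the larval transcripts stood beside those of adults. These were N2 at 300 mM NaCl replicates 3 and 5 and gcp100 at 300 mM NaCl replicates 1 and 5, where the summed level of 7 germline, 10 sperm and 6 yolk protein genes was 576 to 10972 TPM, against 8.66 to 299 TPM in the other 44 libraries. The limit of 500 TPM was chosen after the data were examined. Counts of calls that rest on these libraries are given with and without them, and values of single genes are given without them for some genes only. A further library, gcp100 at 300 mM NaCl replicate 3, listed 41 of the 75 P450 genes at 0, and 19.8% of the 12442 protein-coding genes with a median of at least 1 TPM. N2 at 300 mM replicate 5 and gcp100 at 300 mM replicate 5, of the 4 above, listed 34 and 31 members at 0, and the other libraries at most 15, with a median of 3 over all 48. Zeros of these 3 libraries may not stand for absence of a transcript, and a fit without the 4 libraries and gcp100 replicate 3 was added after the data were examined. Intestine markers were present in all libraries, with a sum over 9 genes of 832 to 3458 TPM. The early endoderm factor end-3, expressed in embryos, was at most 0.64 TPM.

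The P450 genes together made up 294 to 560 TPM of a library, with a median of 399 TPM. The levels were uneven: 13 genes had a mean of at least 10 TPM over the 48 libraries, 38 had a mean of 1 to 10 TPM and 24 had a mean under 1 TPM. The 12 most abundant genes held 57.7% of the summed P450 TPM. In every library 19 genes reached 1 TPM, 8 genes reached it in none, and 50 genes were listed at 0 in at least 1 library.

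**Figure D1:**
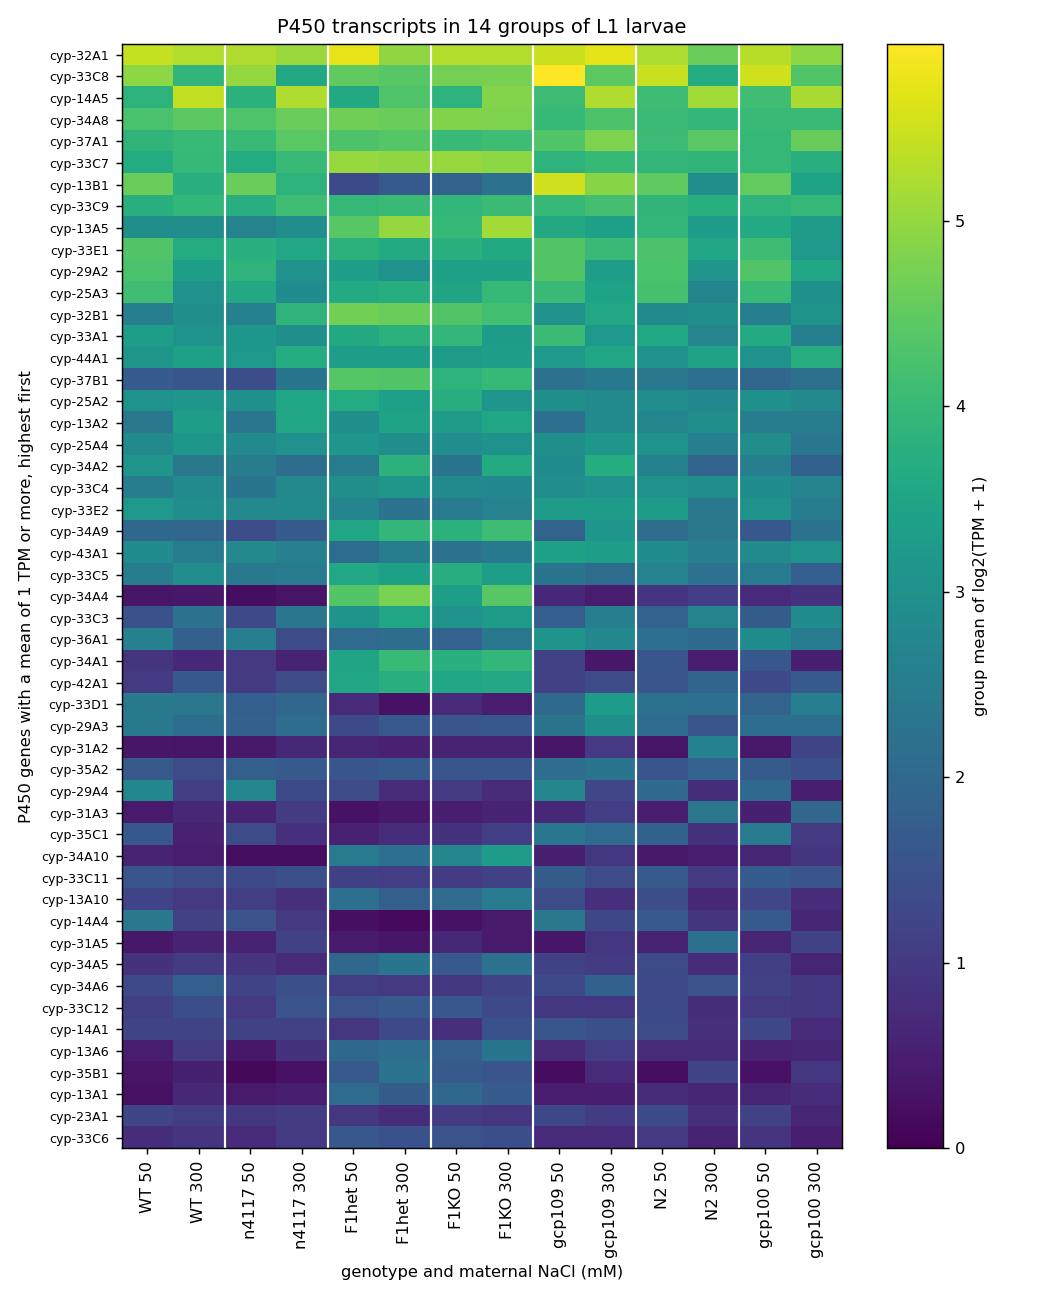
Colour gives the group mean of log2(TPM + 1) for the P450 genes with a mean of 1 TPM or more (rows, highest mean first) in the 14 groups (columns, by genotype and maternal NaCl in mM). The 4 columns of F1het and F1KO differ from the others in several rows, such as cyp-34A4, cyp-34A1 and cyp-42A1, which are higher there, and cyp-13B1, which is lower.

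The CYP2 clan, with 44 members, held 210 TPM on average over the libraries, the CYP4 clan, with 11 members, 106 TPM, and the CYP3 clan, with 19 members, 79.0 TPM. The single mitochondrial member, cyp-44A1, had a mean of 9.41 TPM, and its value is uncertain because it overlaps npp-24 on the same strand. Of the CYP4 clan, cyp-32A1 (V 7781811 to 7784594 of WBcel235, plus strand) had the highest mean of all members, 38.5 TPM. Its lowest library was at 7.79 TPM (N2 at 300 mM NaCl, replicate 3, one of the libraries with adult transcripts) and its highest at 105 TPM (F1het at 50 mM NaCl, replicate 2). cyp-37A1 followed in this clan with 19.1 TPM, and its value is uncertain because it overlaps a protein-coding gene on the opposite strand.

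In the CYP2 clan the 33C subfamily, with 11 members on chromosome V, was the most abundant, with a summed mean of 85.1 TPM. cyp-33C8 led it with 29.2 TPM, followed by cyp-33C7 with 18.4 TPM and cyp-33C9 with 14.5 TPM. Of the other CYP2 genes, cyp-14A5 reached a mean of 24.8 TPM, cyp-34A8 19.2 TPM and cyp-33E1 14.05 TPM. In the CYP3 clan cyp-13B1 (16.9 TPM), cyp-13A5 (14.2 TPM) and cyp-25A3 (11.9 TPM) had the highest means. The 5 genes of the 35A subfamily were low: cyp-35A2 had a mean of 2.46 TPM and the other 4 had means under 1 TPM. cyp-36A1, known as a gene downstream of the hypoxia factor HIF-1 in behaviour, had a mean of 4.53 TPM.

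Of the 75 genes, 42 lie on chromosome V, 12 on II, 7 each on IV and X, 6 on III and 1 on I. Where neighbours were at most 20 kb apart, 6 runs of 3 or more genes were found. The longest held 11 genes at V 3936326 to 3972991 (WBcel235), cyp-35A5 to cyp-34A10, and their mean levels ran from 0.0623 TPM (cyp-35B3) to 19.2 TPM (cyp-34A8). In the run of 8 cyp-13A genes at II 9779181 to 9807569, cyp-13A5 had a mean of 14.2 TPM and its neighbour cyp-13A4 one of 0.149 TPM. Adjacent genes of 1 subfamily therefore differed widely in level. Near-identical copies within such runs can share reads, and how the authors' counting split them is not given in the sources used here.

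On average over the genotypes, higher maternal salt went with more cyp-14A5 and cyp-33C3 and with less cyp-33C8, cyp-29A2, cyp-29A4 and cyp-25A3 in the L1 progeny. Group means of cyp-14A5 were 11.8 to 17.0 TPM at 50 mM and 19.7 to 41.5 TPM at 300 mM. The responses of cyp-33C8 and cyp-25A3 differed between set E and the other sets. The direct tests within single genotypes, with libraries unpaired, passed for few genes, all in the larger sets F and G. Where libraries were paired by replicate number, more members passed in gcp109, and members also passed in F1KO of set E.

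**Figure D2:**
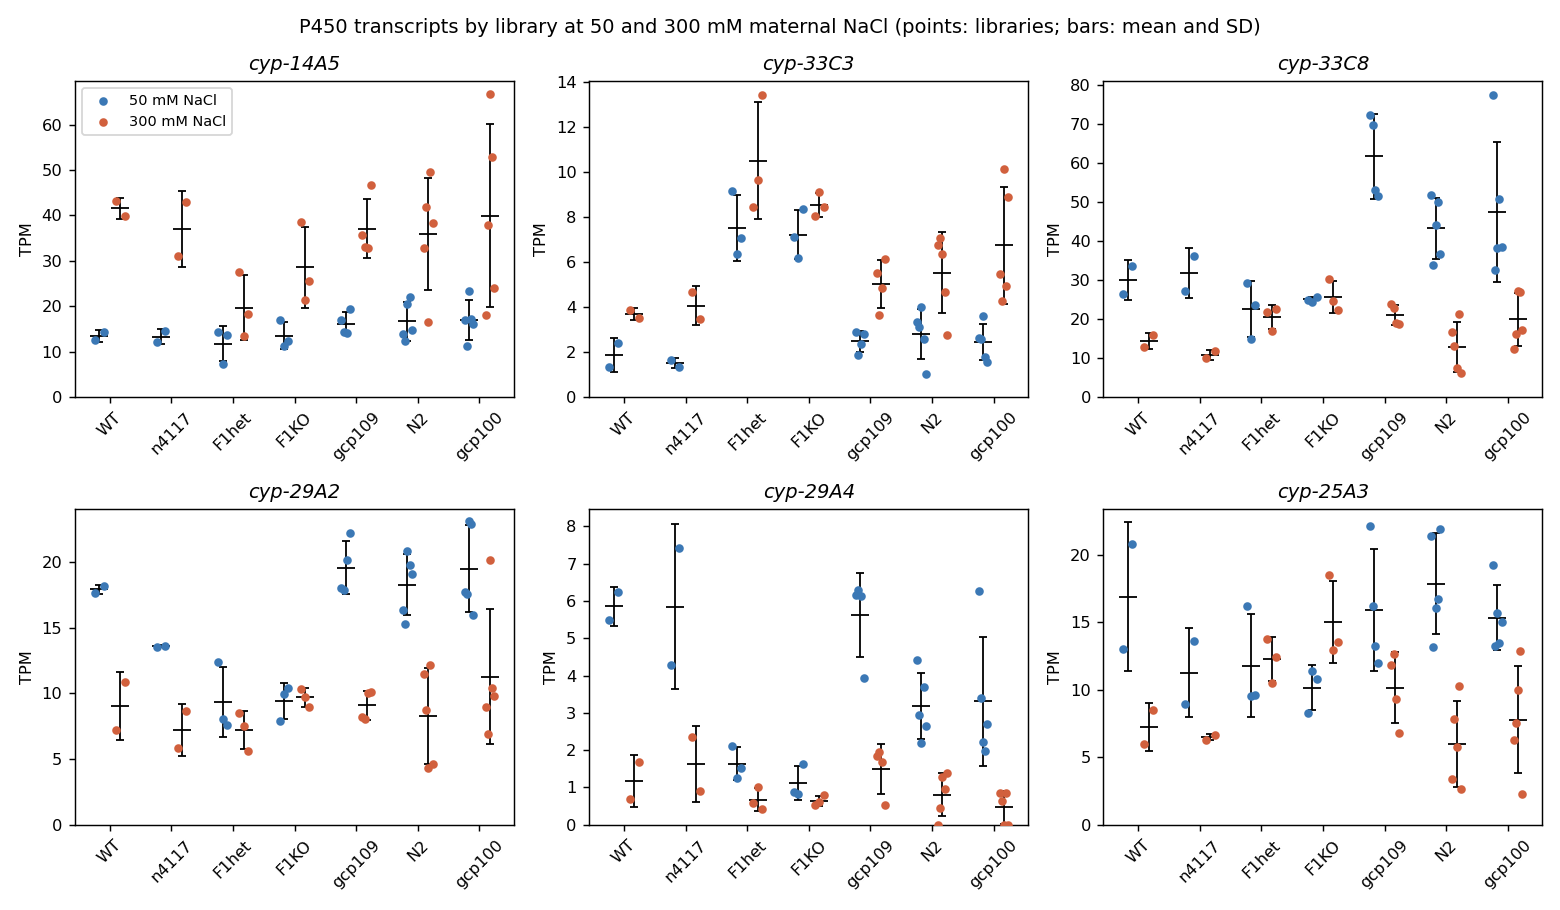
Each point is the TPM of 1 library for 6 P450 genes in 7 genotypes, in blue at 50 mM and in red at 300 mM maternal NaCl, with bars for the mean and SD of a group. Means of cyp-14A5 are higher at 300 mM in all 7 genotypes, and means of cyp-33C8 are lower at 300 mM in WT, n4117, gcp109, N2 and gcp100.

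cyp-14A5 (WBGene00000373, V 5421018 to 5423282, minus strand), a member of the CYP2 clan, was read at 17.0, 14.2, 14.1 and 19.3 TPM in the gcp109 libraries at 50 mM NaCl and at 35.8, 33.03, 32.8 and 46.6 TPM at 300 mM. The groups did not overlap. The log2 difference was 1.14 ± 0.15 (SE), with an adjusted p of 0.0103 in limma. In WT the libraries stood at 12.5 and 14.3 TPM at 50 mM and at 43.2 and 39.8 TPM at 300 mM, and in n4117 at 12.2 and 14.4 TPM and at 31.1 and 42.97 TPM. The groups did not overlap in either genotype, but with 2 libraries per group the differences of 1.57 ± 0.22 and 1.40 ± 0.22 did not pass the test, with adjusted p of 0.168 and 0.160 in limma.

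In F1het cyp-14A5 was at 14.3, 7.39 and 13.7 TPM at 50 mM and at 27.4, 13.5 and 18.2 TPM at 300 mM, and these groups overlapped. F1KO libraries stood at 16.9, 11.3 and 12.4 TPM against 38.6, 21.4 and 25.7 TPM and did not overlap. In N2 the 5 libraries at 50 mM read 13.97, 12.2, 20.6, 22.01 and 14.8 TPM, and those at 300 mM 32.8, 41.9, 16.6, 49.6 and 38.4 TPM. The 1 low value at 300 mM, 16.6 TPM, came from replicate 3, which held the adult transcripts. In gcp100 the values were 17.0, 11.3, 23.4, 17.1 and 16.1 TPM at 50 mM and 18.0, 37.9, 66.6, 52.9 and 24.1 TPM at 300 mM, where 18.0 and 24.1 TPM belonged to the libraries with adult transcripts and 66.6 TPM to replicate 3, the library with 41 members at 0. Without the libraries with adult transcripts cyp-14A5 rose in N2 by 1.27 ± 0.25 (adjusted p = 0.00834 in limma) and in gcp100 by 1.57 ± 0.25 (adjusted p = 0.00771 in limma), and with them it did not pass the test in either, with adjusted p of 0.0869 and 0.175 in limma. With gcp100 replicate 3 left out as well, the rise in gcp100 was 1.38 ± 0.27 (adjusted p = 0.0412 in limma).

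cyp-33C8 (V 3800782 to 3803542, minus strand), the second most abundant member, moved the other way. In gcp109 it stood at 72.3, 69.7, 53.1 and 51.4 TPM at 50 mM NaCl and at 23.7, 22.9, 19.1 and 18.7 TPM at 300 mM, and it fell by 1.49 on the log2 scale (SE 0.15, adjusted p = 0.00308 in limma). In N2 the values were 51.7, 33.9, 44.1, 49.9 and 36.6 TPM at 50 mM and 16.7, 12.97, 7.33, 21.3 and 6.11 TPM at 300 mM. Every library at 300 mM lay below every library at 50 mM in both genotypes. In N2 it fell by 1.78 (SE 0.31, adjusted p = 0.00298 in limma), and by 1.31 without the libraries with adult transcripts (SE 0.27, adjusted p = 0.0112 in limma).

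The cyp-33C8 levels in set E showed no such gap. F1het libraries read 29.1, 14.8 and 23.6 TPM at 50 mM and 21.9, 16.9 and 22.4 TPM at 300 mM, and F1KO libraries 24.97, 24.4 and 25.6 TPM and 30.2, 24.5 and 22.2 TPM. The groups overlapped in both genotypes. In WT and n4117 of set D the means went from 29.9 ± 5.06 and 31.7 ± 6.41 TPM (SD, n = 2) to 14.3 ± 2.10 and 10.9 ± 1.31 TPM, and in gcp100 of set G from 47.4 ± 18.0 to 19.9 ± 6.78 TPM (SD, n = 5).

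cyp-29A4 and cyp-29A2, of the CYP4 clan and on chromosome V, had lower means at 300 mM in all genotypes, apart from cyp-29A2 in F1KO. In F1KO cyp-29A2 was at 9.43 ± 1.35 TPM and 9.69 ± 0.687 TPM, and in F1het at 9.36 ± 2.64 TPM and 7.23 ± 1.45 TPM (SD, n = 3). In gcp109 cyp-29A2 was at 18.0, 17.9, 20.2 and 22.2 TPM at 50 mM and at 8.21, 8.04, 10.0 and 10.1 TPM at 300 mM, a fall of 1.03 (SE 0.13, adjusted p = 0.00805 in limma). cyp-29A4 was at 6.16, 6.29, 6.13 and 3.93 TPM and at 1.85, 1.95, 1.68 and 0.52 TPM, and fell by 1.44 (SE 0.26, adjusted p = 0.0347 in limma). Neither gene's groups overlapped in gcp109. The call of cyp-29A4 there was lost when gcp109 at 50 mM replicate 1, 2 or 3 was left out, or replicate 1, 2 or 3 at 300 mM, with adjusted p of 0.0598 to 0.138 in limma.

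In N2 cyp-29A4 read 4.42, 2.93, 2.18, 3.69 and 2.66 TPM at 50 mM and 0.44, 1.28, 0.95 and 1.38 TPM at 300 mM, with replicate 1 listed at 0. In gcp100 it read 6.26, 3.41, 2.22, 1.99 and 2.69 TPM and 0.86, 0.64 and 0.86 TPM, with replicates 3 and 5 listed at 0. These groups did not overlap either, and the falls were 1.25 (SE 0.33, adjusted p = 0.0379 in limma) and 1.53 (SE 0.33, adjusted p = 0.0383 in limma), the latter the only call in gcp100. The gcp100 call was lost without any 1 of the libraries at 50 mM and without replicate 3 or 5 at 300 mM, with an adjusted p of up to 0.125 in limma. Replicate 3 is the library with 41 members at 0, and without it and the libraries with adult transcripts cyp-29A4 had a difference of -1.23 ± 0.35 (adjusted p = 0.153 in limma). cyp-29A2 in N2 went from 18.3 ± 2.34 to 8.27 ± 3.68 TPM (SD, n = 5), and fell by 1.15 (SE 0.29, adjusted p = 0.0304 in limma). In this low range the pseudocount of 1 makes the log2 difference of cyp-29A4 smaller than that of its TPM.

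The CYP3 genes cyp-25A3 (III 3837538 to 3839735, minus strand) and cyp-13B1 (X 13406674 to 13409643, minus strand) also fell in N2. cyp-25A3 stood at 21.4, 13.2, 16.04, 16.7 and 21.9 TPM at 50 mM and at 3.36, 7.86, 5.74, 10.3 and 2.62 TPM at 300 mM, with no overlap, and fell by 1.54 (SE 0.36, adjusted p = 0.0196 in limma). cyp-13B1 stood at 42.3, 23.8, 24.96, 11.4 and 16.5 TPM and at 11.8, 8.68, 3.37, 7.29 and 4.86 TPM, where the groups overlapped slightly, and fell by 1.57 (SE 0.35, adjusted p = 0.0148 in limma). The sixth call in N2 was cyp-34A1, of the CYP2 clan, at 1.26, 1.72, 1.7, 2.63 and 2.98 TPM at 50 mM and at 0.74, 0.14, 0.35 and 0.78 TPM at 300 mM, where replicate 5 was listed at 0, with no overlap, a fall of 1.13 (SE 0.29, adjusted p = 0.0344 in limma).

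Counted over the family, the calls were few. In gcp109 1 gene rose and 3 fell of 43 tested, where 1.35% of all genes were called. In N2 0 genes rose and 6 fell of 48 tested, where 4.3% of all genes were called, and 16 members had an unadjusted p under 0.05. In gcp100 0 rose and 1 fell of 48 tested, where 0.622% of all genes were called, and 11 members had an unadjusted p under 0.05. Limma called 0 members in WT, n4117, F1het and F1KO, with 44, 44, 50 and 50 members tested, where 0.0%, 0.0468%, 0.00647% and 0.0259% of all genes were called. At an unadjusted p under 0.05 these genotypes had 10, 8, 6 and 8 members.

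The replicate numbers paired the libraries of gcp109, of F1het and of F1KO. With the replicate number as a block, 14 of the 43 members were called in gcp109, 8 higher and 6 lower, where 12.5% of all genes were called. These held the 4 calls above and, among the others, cyp-34A9 (1.22 ± 0.12, adjusted p = 0.00302 in limma), cyp-33A1 (-0.90 ± 0.10, adjusted p = 0.00445 in limma) and cyp-33D1 (1.22 ± 0.18, adjusted p = 0.0112 in limma). Without the block cyp-34A9 and cyp-33D1 were the members just outside the threshold, with adjusted p of 0.0574 and 0.0661 in limma, and cyp-29A4 was just inside. In F1KO the block gave 2 calls, where 1.48% of all genes were called: cyp-14A5 (1.00 ± 0.14, adjusted p = 0.0206 in limma) and cyp-13A5 (1.15 ± 0.19, adjusted p = 0.0308 in limma).

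In N2 the count of 6 fell to 2 without replicate 1 or replicate 5 at 50 mM NaCl, and to 3 without replicate 2, 3 or 4 at 50 mM or replicate 5 at 300 mM. cyp-33C8 passed in all of these fits. cyp-13B1 was lost without replicate 1 at 50 mM (adjusted p = 0.0517 in limma), and cyp-25A3 without replicate 1 or 5 at 50 mM or replicate 5 at 300 mM (up to 0.061). cyp-29A2, cyp-34A1 and cyp-29A4 were each lost in 7 of 10 fits that left out 1 library, with adjusted p of up to 0.0881, 0.104 and 0.0995 in limma. Without the libraries with adult transcripts 1 member rose and 3 fell in N2, of 45 tested, where 4.42% of all genes were called, and in gcp100 1 rose and 1 fell, where 1.54% were called. Without gcp100 replicate 3 as well, 2 rose and 6 fell in N2, where 8.02% of all genes were called, and in gcp100 cyp-14A5 rose and cyp-29A2 fell, where 0.45% were called. With only the libraries with adult transcripts left out, the call of cyp-25A3 in N2 passed (adjusted p = 0.0145 in limma). Those of cyp-13B1, cyp-29A2 and cyp-34A1 did not, with adjusted p of 0.0885, 0.138 and 0.0745 in limma. The median log2 difference of the 48 members in N2 was -0.36, and that of all genes tested was -0.16.

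Cell type markers were compared between salt levels, and values are given for N2, gcp109 and set D. The summed germline markers stood at 4.22 to 26.0 TPM in N2 at 50 mM and at 17.1 to 1126 TPM at 300 mM, all 7 tested had a positive log2 difference and 2 passed the test. The 5 pharynx markers were all lower in N2 at 300 mM, with a sum of 411 to 2032 TPM at 50 mM and 171 to 1568 TPM at 300 mM, and 0 passed. Neuron markers had 0 of 7 positive in N2, with a median of -0.91 and a sum of 1378 to 1589 TPM at 50 mM and 347 to 1382 TPM at 300 mM, and muscle markers 0 of 6, with a median of -0.51. Neither list had a member past the test. Intestine markers summed to 1274 to 3125 TPM and 906 to 2939 TPM, with 3 of 8 positive and 0 past the test. In gcp109 intestine markers summed to 2250 to 3208 TPM at 50 mM and to 2214 to 3458 TPM at 300 mM, with 6 of 8 positive. Germline markers in gcp109 summed to 5.38 to 21.2 TPM and 17.9 to 82.8 TPM, with 5 of 5 tested positive and a median of 1.25, and neuron markers had 0 of 7 positive. The part of these markers in the P450 differences was not tested, and in whole larvae fewer cells of a type cannot be told apart from less RNA per cell.

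A mean response over the 7 genotypes, weighted equally, was added after the data were examined. The wild type entered it both as WT and as N2. In this fit of all 48 libraries 62 members were tested, and 4 rose and 10 fell, where 12.3% of all genes were called. The 4 that rose were cyp-14A5 (1.13 ± 0.13, adjusted p = 1.69e-07 in limma), cyp-33C3 (0.73 ± 0.12, adjusted p = 2.24e-05 in limma), cyp-13B2 (0.38 ± 0.11) and cyp-13A6 (0.31 ± 0.10). The falls were led by cyp-29A4 (-1.19 ± 0.13, adjusted p = 3.02e-08 in limma), cyp-33C8 (-1.003 ± 0.12, adjusted p = 1.72e-07 in limma), cyp-29A2 (-0.72 ± 0.11, adjusted p = 7.87e-06 in limma) and cyp-25A3 (-0.62 ± 0.14, adjusted p = 0.00166 in limma). The other falls, of cyp-14A4, cyp-13B1, cyp-35C1, cyp-33A1, cyp-33E1 and cyp-34A1, were between 0.42 and 0.65 in size on the log2 scale. In the same fit the germline markers glh-1, mex-5, pgl-1 and wago-1 and the intestinal regulator elt-2 rose and the pharynx gene tni-4 fell. The intestine markers did not move as a set: of 8 tested, 5 were positive in WT, 6 in n4117, 0 in F1het and 1 in F1KO. Group means of elt-2 went from 27.2 to 23.1 TPM in F1het and from 26.3 to 23.0 TPM in F1KO. They were higher at 300 mM in the other genotypes. The part of these markers in the P450 differences was not tested.

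cyp-33C3, a 33C gene of the run on V, had a mean of 2.48 ± 0.471 TPM at 50 mM and of 5.04 ± 1.07 TPM at 300 mM in gcp109 (SD, n = 4), and in WT it stood at 1.35 and 2.40 TPM against 3.88 and 3.52 TPM. Its difference within a genotype passed no test without the block. cyp-13B2 and cyp-13A6 were low, with means of 0.653 and 1.33 TPM, and reached the 1 TPM of the filter in 6 and 17 libraries. All 6 libraries of cyp-13B2 were at 300 mM NaCl, among them N2 replicate 3 and gcp100 replicates 1, 3 and 5. It passed the filter only through groups at 300 mM, where it was higher. Its place among the 4 that rose is therefore a description. The call of cyp-13B2 was lost without WT at 300 mM replicate 2 (adjusted p = 0.0527 in limma), that of cyp-13A6 in 12 of 48 fits that each left out 1 library and that of cyp-34A1 in 26 of 48, with largest adjusted p of 0.0695 and 0.0938 in limma. WT at 50 mM replicate 2 gave the largest p for both. Without the 4 libraries with adult transcripts 8 members rose and 10 fell of 62, where 21.2% of all genes were called, and without gcp100 at 300 mM replicate 3 as well 12 rose and 11 fell, where 24.7% were called.

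**Figure D3:**
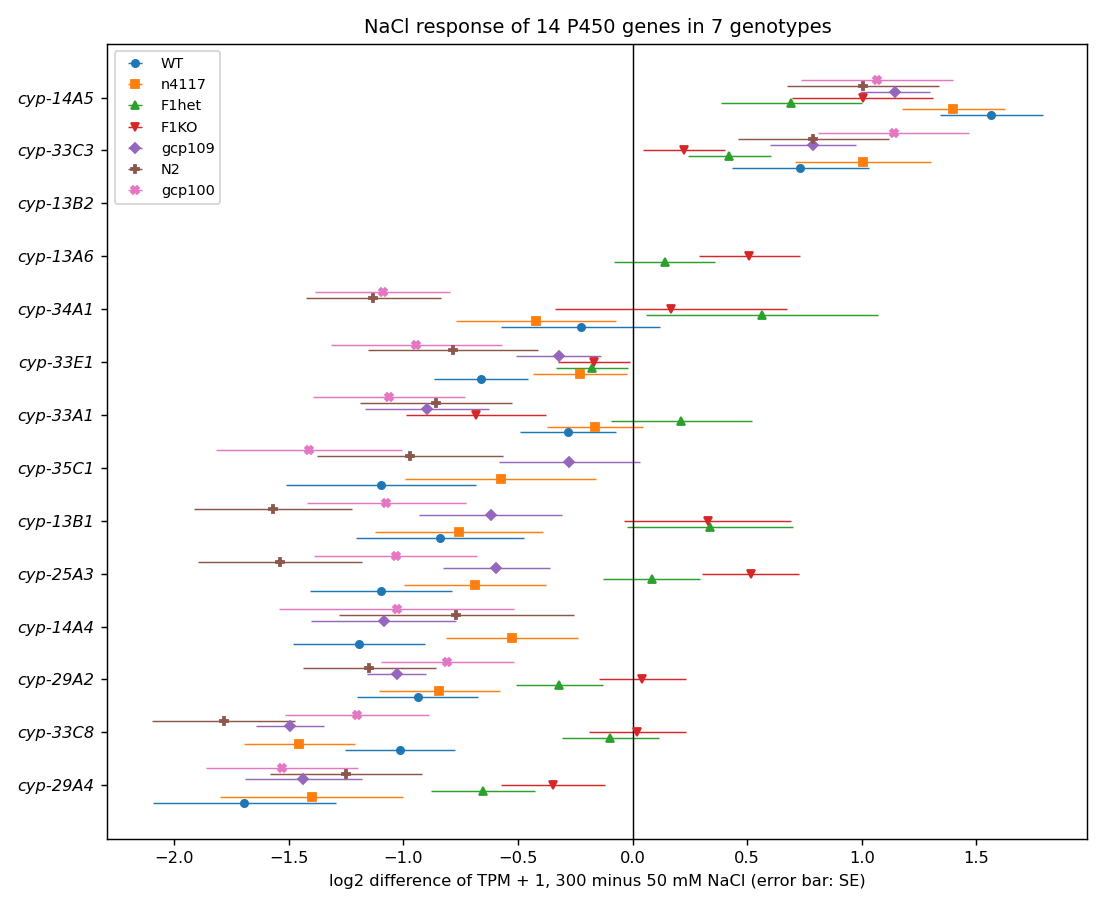
Points are log2 differences of TPM + 1 between 300 and 50 mM maternal NaCl in each of 7 genotypes, with SE as error bars, for the 14 P450 genes called in the mean response, and a point is missing where the gene was not tested in that set. The F1het and F1KO points of cyp-33C8, cyp-25A3 and cyp-13B1 lie near or above 0, and those of the other genotypes lie below 0.

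Across the 7 separate responses, which share no library, 38 members were tested in all. Of these, 4 had a positive difference in all 7 genotypes (cyp-14A5, cyp-33C3, cyp-37A1 and cyp-42A1), where 10.7% of all genes did, and 2 a negative one in all 7 (cyp-29A4 and cyp-33E1), where 7.55% of all genes did. The shares of the members, 4 and 2 of 38, were near these backgrounds. For cyp-14A5 the 7 differences ran from 0.69 in F1het to 1.57 in WT, and for cyp-29A4 from -1.69 in WT to -0.35 in F1KO.

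Set E differed from the other sets in its salt response. The response of set E minus the mean response of sets D, F and G, a comparison added after the data were examined, was positive and past the test for 5 members and negative for 0, of 62 tested, where 1.84% of all genes were called. These were cyp-33C8 (1.35 ± 0.26, adjusted p = 0.0026 in limma), cyp-25A3 (1.29 ± 0.30, adjusted p = 0.0142 in limma), cyp-13A7 (0.73 ± 0.18, adjusted p = 0.0192 in limma), cyp-13B1 (1.31 ± 0.35, adjusted p = 0.0366 in limma) and cyp-34A2 (1.69 ± 0.46, adjusted p = 0.0444 in limma). cyp-13A7 reached 1 TPM in 10 libraries, all of set E, and was at most 0.89 TPM elsewhere. It passed the filter only through set E, so its call is a description. cyp-13B1 stood at 0.89 to 4.66 TPM in set E, a range in which the pseudocount of 1 makes a fall smaller. cyp-25A3 read 16.2, 9.56 and 9.60 TPM at 50 mM and 13.8, 10.52 and 12.5 TPM at 300 mM in F1het, and 8.27, 11.4 and 10.8 TPM and 18.5, 12.96 and 13.5 TPM in F1KO. The means of cyp-25A3 at 300 mM were thus not below those at 50 mM in set E, while they were in the other 5 genotypes.

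Without the libraries with adult transcripts 9 members were positive and 2 negative in this comparison, where 5.87% of all genes were called. Without gcp100 at 300 mM replicate 3 as well the counts were again 9 and 2, where 8.29% were called. The calls of cyp-33C8 and cyp-25A3 passed when any single library was left out. The calls of cyp-13A7, cyp-13B1 and cyp-34A2 were lost in 4, 12 and 26 of 48 such fits, with adjusted p of up to 0.0819 (without F1het at 300 mM replicate 3), 0.0988 (without F1het at 50 mM replicate 2) and 0.172 (without F1het at 300 mM replicate 3) in limma. The count of 5 was 2 without F1het at 50 mM replicate 2 or F1KO at 300 mM replicate 3, and 8 without N2 at 300 mM replicate 3. Germline and pharynx markers differed in the same comparison: 0 of 7 germline and 5 of 5 pharynx markers were positive, none past the test. The intestinal regulator elt-2 was lower in this comparison and passed the test, and 1 of 8 intestine markers was positive. Their part in the P450 differences was not tested, and genotype, balancer and set cannot be told apart here.

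Set E also differed in level, at both salt concentrations. cyp-34A4 (V 3950023 to 3952097, plus strand) had the widest range of group means of all members on the log2(TPM + 1) scale. In F1het it read 15.7, 15.2 and 30.8 TPM at 50 mM and 17.7, 21.5 and 46.1 TPM at 300 mM, and in F1KO 3.97, 8.72 and 19.1 TPM and 11.01, 28.2 and 26.4 TPM. In sets D, F and G the median library stood at 0.480 TPM, and of these 36 libraries 4 exceeded 1 TPM: N2 at 300 mM replicate 3 with 17.0 TPM, gcp100 at 300 mM replicate 1 with 6.95 TPM, gcp100 at 50 mM replicate 1 with 1.19 TPM and gcp109 at 300 mM replicate 1 with 1.06 TPM. The highest pair came from libraries with adult transcripts.

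Of the 53 members with at least 1 TPM in at least 12 libraries, 3 had all 12 set E libraries above all 36 others, where 2.27% of all such genes did, and 0 had all of them below, where 2.18% did. The 3 genes were cyp-33C7, cyp-34A1 and cyp-13A6. cyp-13A6 reached 1 TPM in 17 libraries, of which 5 were outside set E, so it passed this filter only through set E, and the count is a description. cyp-33C7 stood at 24.1 to 40.7 TPM in set E, with a median of 30.0 TPM, and at 5.88 to 20.5 TPM elsewhere, with a median of 13.8 TPM. cyp-34A1 stood at 4.81 to 33.3 TPM (median 12.1 TPM) against at most 2.98 TPM (median 0.870 TPM), and cyp-13A6 at 2.20 to 5.13 TPM against at most 1.54 TPM.

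Other members were higher in set E with some overlap. cyp-42A1 had a median of 10.99 TPM in set E and 1.65 TPM elsewhere, cyp-37B1 18.2 and 3.10 TPM, cyp-32B1 21.5 and 6.94 TPM, cyp-34A9 12.4 and 3.20 TPM, cyp-34A10 5.65 and 0.405 TPM, and cyp-13A5 24.97 and 10.4 TPM. cyp-37B1 is uncertain because it overlaps a protein-coding gene on the opposite strand. Lower in set E were cyp-13B1, with a median of 2.82 TPM against 19.1 TPM, cyp-33D1, with 0.400 TPM against 3.83 TPM, and cyp-14A4, with 0.210 TPM against 1.46 TPM. As a sum, the 9 genes of the 34A subfamily averaged 95.9 TPM in set E and 32.5 TPM elsewhere, and the 11 genes of 13A 48.1 and 21.4 TPM. All 34A genes but cyp-34A10, among them cyp-34A4 and cyp-34A1, overlap a noncoding RNA gene on the opposite strand. Their values are uncertain for this reason. The same holds for cyp-33D1, cyp-13A6 and cyp-14A2, which also overlap a noncoding RNA gene on the opposite strand. cyp-14A4 is uncertain because it overlaps a tRNA gene on the same strand and a noncoding RNA gene on the opposite strand.

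The levels of some members did not follow the set. cyp-33C9 had a median of 15.1 TPM in set E and 14.3 TPM elsewhere, cyp-25A4 7.34 and 6.87 TPM, and cyp-33C4 6.33 and 6.14 TPM. The summed P450 level was 399 to 560 TPM in set E and 294 to 492 TPM in the other sets. The intestine markers summed to 832 to 1579 TPM in set E and to 906 to 3458 TPM elsewhere, a sum carried by act-5, ifb-2 and vha-6. The intestinal esterase ges-1 had group means of 33.3 to 37.2 TPM in set E and of 6.66 to 20.1 TPM elsewhere. Of the 12442 protein-coding genes with a median of at least 1 TPM, set E libraries listed 0.973 to 1.23% at 0. Set D libraries listed 0.016 to 0.201% at 0, set F libraries 0.016 to 0.659% and set G libraries 0.008 to 19.8%. The reason for this was not tested. These contrasts of levels between sets were not tested, since set, strain and balancer cannot be told apart.

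**Figure D4:**
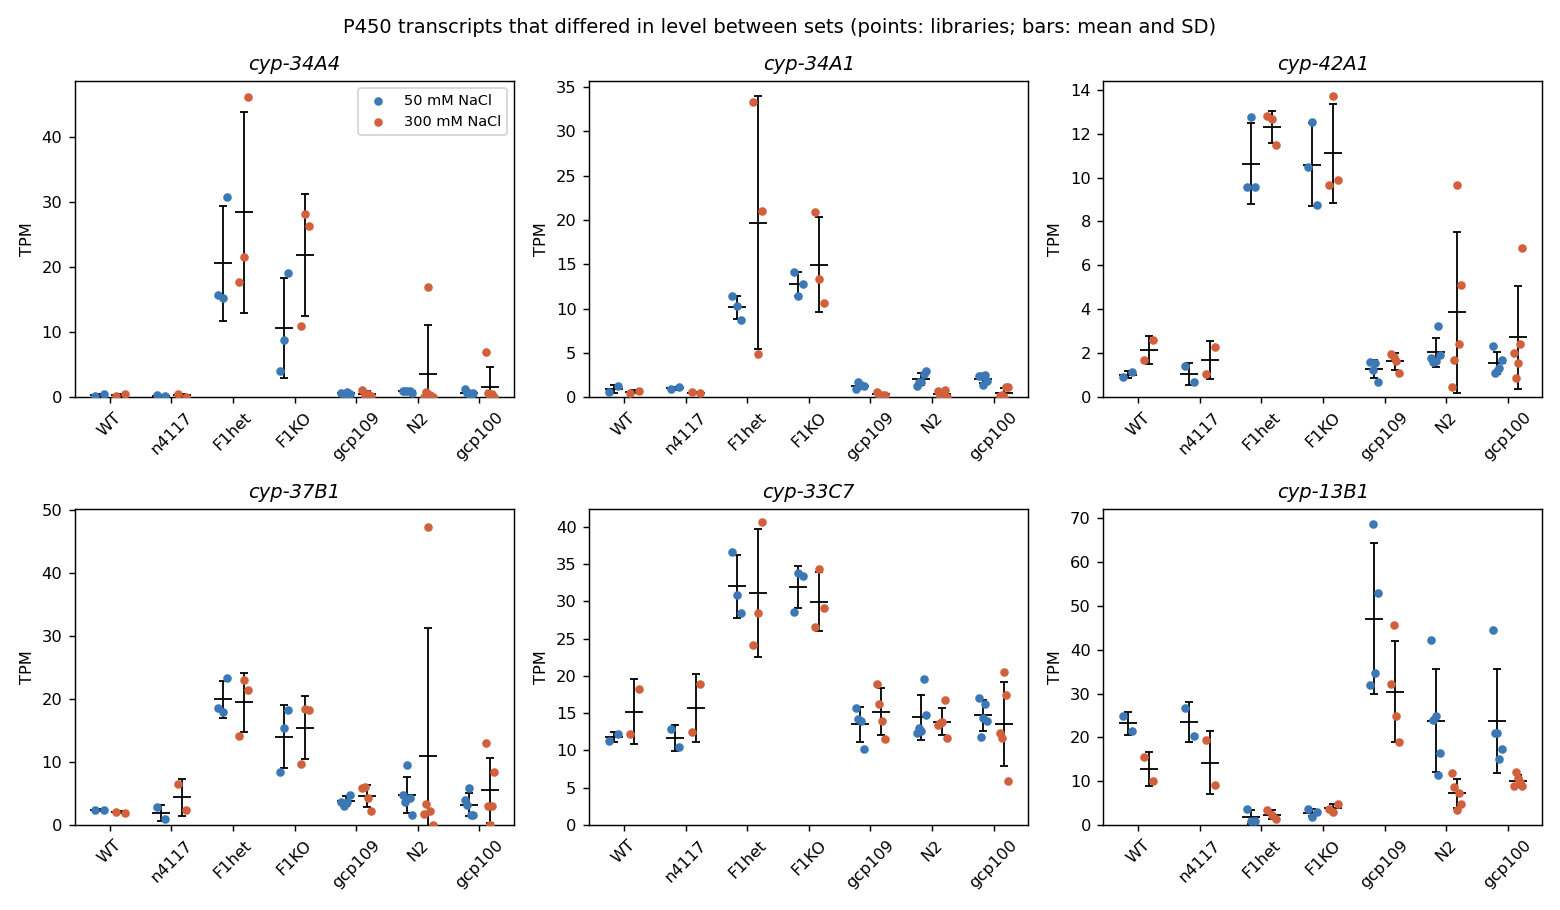
Each point is the TPM of 1 library for 6 P450 genes in 7 genotypes, in blue at 50 mM and in red at 300 mM maternal NaCl, with bars for the mean and SD of a group. cyp-34A4, cyp-34A1, cyp-42A1, cyp-37B1 and cyp-33C7 have higher means in F1het and F1KO than in the other 5 genotypes, and cyp-13B1 has lower ones. 1 high point of cyp-37B1, at 47.4 TPM, is N2 at 300 mM replicate 3.

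The comparisons of mutants with their controls asked whether loss of mir-85, or of its seed match in hrg-1, altered P450 transcripts. Within sets, limma called 0 members in each. n4117 against WT had 44 members tested, with 2 at an unadjusted p under 0.05 at 50 mM NaCl, where 0.0134% of all genes were called, and 0 at 300 mM, where 0.02% were called. The smallest unadjusted p at 50 mM was that of cyp-14A4, at 4.21 and 4.17 TPM in WT and 2.34 and 1.46 TPM in n4117, a difference of -0.86 ± 0.29 (SE). At 300 mM it was that of cyp-32B1, with a difference of 0.89 ± 0.45.

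F1KO against F1het had 50 members tested, with 1 at an unadjusted p under 0.05 at 50 mM, where 0.0194% of all genes were called, and 2 at 300 mM, where 0.0259% were called. cyp-34A10 at 300 mM read 3.54, 4.65 and 2.60 TPM in F1het and 10.9, 7.93 and 7.57 TPM in F1KO, with no overlap. The difference of 1.10 ± 0.26 had an adjusted p of 0.402 in limma. It comes from the fit without the replicate block, although the replicate numbers paired these groups at 300 mM. At 50 mM cyp-14A2 had the smallest unadjusted p, with a difference of 0.56 ± 0.25, and at 300 mM its difference was 0.82 ± 0.25. The F1het groups carry the balancer and the F1KO groups do not, so the effects of the balancer and of mir-85 cannot be told apart.

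gcp100 against N2 had 48 members tested, with 1 at an unadjusted p under 0.05 at 50 mM, where 0.0% of all genes were called, and 1 at 300 mM, where 0.0% were called. At 50 mM this was cyp-36A1 (0.73 ± 0.34), which overlaps figo-1 on the opposite strand and is uncertain. At 300 mM it was cyp-33C8 (0.66 ± 0.31), at 12.9 ± 6.37 TPM in N2 and 19.9 ± 6.78 TPM in gcp100 (SD, n = 5). Both comparisons come from the fit without the replicate block, although the replicate numbers paired these libraries at 50 mM. A p that misses the threshold does not show that the genotypes were alike.

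The salt responses of mutant and control did not differ past the test in any set, with 0 members called by limma. The share of all genes called was 0.0% for n4117 and WT, 0.0% for F1KO and F1het and 0.0% for gcp100 and N2. At an unadjusted p under 0.05 there were 0, 2 and 0 members. The 2 members, cyp-33E2 (0.59 ± 0.27) and cyp-34A10 (0.82 ± 0.37), had a response in F1KO that lay above that in F1het.

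gcp109 and N2 came from sets F and G, so genotype and set cannot be told apart. At 50 mM limma called 0 of 57 members, where 0.0122% of all genes were called, and 3 had an unadjusted p under 0.05. At 300 mM 2 members were higher in gcp109 and 0 lower, where 1.45% of all genes were called. cyp-13B1 read 32.2, 45.6, 24.8 and 18.9 TPM in gcp109 and 11.8, 8.68, 3.37, 7.29 and 4.86 TPM in N2, and the difference was 1.96 ± 0.35 (adjusted p = 0.00502 in limma). cyp-34A2 read 15.9, 12.6, 9.95 and 10.0 TPM and 3.67, 4.11, 1.39, 3.77 and 1.69 TPM, a difference of 1.79 ± 0.39 (adjusted p = 0.0166 in limma). Neither gene's groups overlapped.

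The call of cyp-34A2 was lost without replicate 1, 2 or 3 of gcp109, or without replicate 5 of N2, at 300 mM (adjusted p of up to 0.0776 in limma). With N2 at 300 mM replicate 1 or replicate 2 left out, 4 members were called, cyp-32A1 and cyp-29A3 being added. Without the libraries with adult transcripts 1 member, cyp-34A2, was called (1.41 ± 0.25, adjusted p = 0.00764 in limma), where 0.674% of all genes were, and cyp-13B1 had an adjusted p of 0.0618 in limma. Without gcp100 at 300 mM replicate 3 as well, which enters the shared estimate of the spread, cyp-34A2 alone was called, where 1.33% of all genes were.

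The 31A genes cyp-31A2, cyp-31A3 and cyp-31A5 were near 0 in most libraries and high in 3. They are related genes on chromosome IV that may share reads, which was not tested, and their sum is given. The value of cyp-31A5 is also uncertain because it overlaps a protein-coding gene on the opposite strand. The median library stood at 1.33 TPM for the sum. N2 at 300 mM replicate 3 reached 109 TPM, gcp100 at 300 mM replicate 1 71.8 TPM and N2 at 300 mM replicate 5 35.7 TPM. All of these are among the libraries with adult transcripts, where germline, sperm and yolk markers together were at 9882, 10972 and 576 TPM. The fourth such library, gcp100 at 300 mM replicate 5, was at 5.60 TPM of 31A transcripts with 3856 TPM of markers, of which 3773 TPM were yolk protein and 44.8 TPM germline transcripts.

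Outside these libraries the sum of the 31A genes was highest in N2 at 300 mM replicate 1, with 8.02 TPM beside 299 TPM of adult markers. In set E it was 0.700 to 2.03 TPM, with 13.1 to 25.8 TPM of adult markers. The salt difference in N2 did not pass the test for cyp-31A3 (1.90 ± 0.77, adjusted p = 0.142 in limma) or cyp-31A5 (1.62 ± 0.74, adjusted p = 0.187 in limma), and cyp-31A2 did not pass the filter of set G. cyp-25A1, named after its values were seen, read 17.98 TPM in gcp100 at 300 mM replicate 5 and at most 0.62 TPM in the other 47 libraries.

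**Figure D5:**
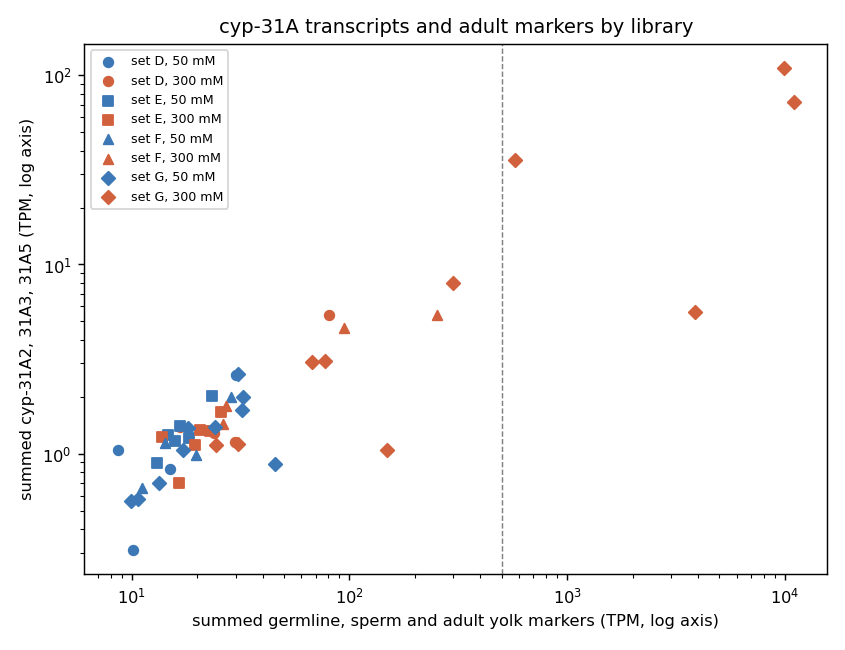
Each point is 1 of the 48 libraries, with the summed germline, sperm and adult yolk markers in TPM on a logarithmic x axis and the summed cyp-31A2, cyp-31A3 and cyp-31A5 in TPM on a logarithmic y axis, by set and maternal NaCl. The dashed line marks 500 TPM of markers. The 4 points to its right are set G libraries at 300 mM, and 3 of them stand above all other libraries at 35.7 to 109 TPM.

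The partners of P450 enzymes were read from lists chosen with earlier results of these data known. Of 5 redox partners, 0 rose and 3 fell in the mean salt response, where 12.3% of all genes were called: emb-8, the P450 reductase (-0.40 ± 0.08, adjusted p = 0.000572 in limma), cytb-5.2, a cytochrome b5 (-0.59 ± 0.07, adjusted p = 1.72e-07 in limma) and vem-1, a membrane protein of the cytochrome b5 type (-0.43 ± 0.09, adjusted p = 0.00138 in limma). The median of the 5 was -0.40, and that of all genes tested 0.01. In N2 emb-8 and cytb-5.2 fell, and 0 redox partners passed the test in the other 6 genotypes. Group means of emb-8 went from 215 TPM at 50 mM to 123 TPM at 300 mM in WT and from 280 to 205 TPM in gcp109. In F1het they were 66.4 and 66.6 TPM and in F1KO 61.1 and 82.8 TPM. The response of emb-8 in set E lay above that in the other sets (0.89 ± 0.18, adjusted p = 0.0036 in limma), which was the direction of cyp-33C8 and cyp-25A3.

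Of 5 genes of heme supply, 4 were found and tested in the mean response, and 3 rose, where 12.3% of all genes were called: the heme transporter hrg-1 (1.13 ± 0.15), the heme carrier hrg-3 (1.36 ± 0.21) and the heme exporter mrp-5 (0.49 ± 0.11). hrg-4, a heme importer of the intestine, did not pass the test. Of 10 regulators of responses to foreign compounds and stress, 0 rose and 2 fell, aha-1 (-0.28 ± 0.08) and hif-1 (-0.32 ± 0.10), a share near those 12.3%. None of the 8 dafachronic acid and sterol genes tested, among them daf-9, and neither of the 2 epoxide hydrolases passed limma's test in the mean response. The rise of hrg-1 was not shared by all genotypes. Its group mean went from 20.2 TPM at 50 mM to 18.0 TPM at 300 mM in N2 and from 7.65 to 12.6 TPM in WT. In n4117 it went from 14.8 to 80.2 TPM, in gcp109 from 20.0 to 52.9 TPM and in gcp100 from 15.3 to 33.8 TPM. In F1het it went from 14.9 to 39.1 TPM and in F1KO from 15.7 to 45.7 TPM. At 300 mM hrg-1 was called higher in gcp109 than in N2, where genotype and set cannot be told apart.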

How the data were processed

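RNA sequencing of L1 larvae gave 1 deposited table of TPM, which the authors computed and which is used as deposited. Per the submitters' processing notes the builds were ce11 and WBcel235 and bedtools was used. Aligner, counting program and use of strand: not given in the sources used here. Therefore overlapping genes and near-identical copies are uncertain. TPM summed to between 953862 and 999109 per library, and depth is unknown. Of 68 samples 48 were used, and 20 are not analysed here.

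In set G the values of 20693 of 30467 lines stood beside the wrong gene, those of the P450 genes by 1 line, and they were moved back. Over the P450 genes the correlation with the other sets went from 0.267 to 0.967. Gene positions are those of the WBcel235 annotation, and 74 of 75 IDs carried the same symbol there.

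Values of log2(TPM + 1) entered limma (3.58.1, under R 4.3.3, variance trend on), in 1 fit per set, 1 for sets F and G and 1 over all libraries. A gene was kept when the number of libraries at 1 TPM or above reached the size of the smallest group. The pseudocount of 1 understates the change of low genes. Between 43 and 62 of the 75 members passed the filter of a fit, and 18 passed in none of sets D to G alone. The procedure was tested on simulated data. Alternatives were a pseudocount of 0.1, no filter, a filter at 5 TPM, rescaling by median ratios, no trend, a replicate block and each library left out in turn. Those on adult transcripts, on libraries with many zeros, the fit over all libraries and the limit of 500 TPM were chosen after seeing the data.

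Replicate numbers in the labels were taken as pairs where every same-numbered pair deviated together with r over 0.1 over at least 3 pairs. This held for gcp109 (lowest r = 0.591), F1het (0.170) and F1KO (0.280) between NaCl levels, for F1KO and F1het at 300 mM (0.134) and for gcp100 and N2 at 50 mM (0.402).

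The members, the gene lists and the tests were chosen with earlier results of these data known. Named genes were those past the threshold in any comparison, the 12 with the highest mean, up to 6 with the smallest p in a comparison, the 8 with the widest range of group means of log2(TPM + 1) and the neighbours of a threshold. Others shown for their run, subfamily or set were added after their values were seen.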

Additional observations from a re-analysis of the deposited data

Results flagged for a closer look

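In groups of 4 or 5 libraries, 16 values of the 28 named members stood far from the rest of their group. The highest and lowest library were examined in 168 pairs of a gene and a group. Chance flags about 1 in 20 such groups. High values in libraries with adult transcripts were those of cyp-37B1 (47.4 TPM against at most 3.26 TPM) and cyp-34A4 (17.0 TPM against at most 0.840 TPM) in N2 at 300 mM NaCl replicate 3, cyp-34A4 in gcp100 at 300 mM replicate 1 (6.95 TPM against at most 0.610 TPM), cyp-42A1 in gcp100 at 300 mM replicate 5 (6.8 TPM against at most 2.42 TPM) and cyp-14A4 in N2 at 300 mM replicate 5 (4.39 TPM against at most 1.21 TPM).

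In other libraries, cyp-13A5 was at 33.9 TPM in N2 at 50 mM replicate 3, where the others were at 10.51 to 12.6 TPM. cyp-13B1 was at 44.5 TPM in gcp100 at 50 mM replicate 1, where the others were at 15.01 to 21.0 TPM. cyp-29A2 was at 20.2 TPM in gcp100 at 300 mM replicate 3, where the others were at 6.93 to 10.4 TPM. cyp-29A4 was at 3.93 TPM in gcp109 at 50 mM replicate 4, where the others were at 6.13 to 6.29 TPM.

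Small values set apart were cyp-34A10 at 1.87 TPM in gcp109 at 50 mM replicate 3 and at 0.810 TPM in N2 at 50 mM replicate 4, cyp-42A1 at 3.22 TPM in the latter library, cyp-34A9 at 1.93 TPM in N2 at 50 mM replicate 2, cyp-34A4 at 0.650 TPM in N2 at 50 mM replicate 5, cyp-13A7 at 0.420 TPM in N2 at 50 mM replicate 1 and cyp-13B2 at 0.420 TPM in gcp109 at 50 mM replicate 1.

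The salt response of set E differed from that of sets D, F and G, by limma's test of the difference itself, for cyp-34A2 (1.69), cyp-33C8 (1.35), cyp-13B1 (1.31), cyp-25A3 (1.29) and cyp-13A7 (0.73 on the log2 scale). Of these, cyp-13A7 passed the filter only through set E, and its difference is a description.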

How the results depend on the processing

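4 single-gene differences, none past the test, changed direction, in each case without the libraries rich in adult transcripts or in zeros. For gcp100 against N2 at 300 mM these were cyp-29A2 (0.42 to -0.30), cyp-29A3 (0.59 to -0.036) and cyp-34A6 (-0.57 to 0.19), and for the difference of their responses cyp-35A2 (-0.58 to 0.10). In that setting the count of the mean response went from 14 to 23, that of gcp100 to 2, that of gcp109 against N2 at 300 mM to 1 and that of set E to 11. In gcp100 the count of 1 member called between NaCl levels went to 0 with a pseudocount of 0.1, with no filter and with a filter at 5 TPM, and to 2 with the replicate block, where the numbers do not pair the libraries, and to 2 without the 4 libraries with adult transcripts. The replicate block gave 14 in place of 4 in gcp109 and 2 in place of 0 in F1KO, and, beside that of gcp100, changed no other count by over 1.5 times. For gcp109 against N2 at 300 mM the count of 2 went to 1 with a pseudocount of 0.1 and to 1 without the 4 libraries. For the response of set E against the other sets the count of 5 went to 3 with a pseudocount of 0.1 and to 11 without the 4 libraries. With single libraries left out the counts ran from 0 to 1 in F1het, from 0 to 1 in gcp100, from 2 to 6 in N2, from 1 to 4 for gcp109 against N2 at 300 mM and from 2 to 8 for set E, the 8 without N2 at 300 mM replicate 3. The 1 call in F1het came without replicate 2 at 300 mM. The cause of these changes was not tested. Rescaling moved the median log2 difference of all genes in n4117 from 0.16 to 0.01 and changed no count of members by over 1.5 times. TPM keep no depth, so what depth limits cannot be stated.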

Other observations

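Among the 6 P450 rows typed as pseudogenes, cyp-31A1 was listed at 5.57 to 26.7 TPM in all 48 libraries, with a mean of 23.5 TPM in set E and 18.4 TPM in the other sets. The protein-coding members of its subfamily had a median sum of 1.33 TPM. The other 5 pseudogene rows had means of 0.0692 to 1.18 TPM.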
